A study of Mus musculus with 15 samples.

Results

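The mitochondrial respiratory chain and the ATP synthase were followed through 93 genes in liver tumors of mice with and without a liver-specific deletion of Trp53. The genes were chosen by name. A non-control probe of the array belonged to the set if its gene name began with Nduf, Uqcr, Atp5 or Cox followed by a digit from 4 to 8, or was Sdha, Sdhb, Sdhc or Sdhd. This gave 127 of 55681 probes and 93 of 24336 genes with a symbol. The rule uses names alone. The study compared RNA of 15 tumors on 1-colour Agilent arrays, in 3 groups of 5. The first group was hepatocellular carcinoma (HCC) of p53f/f mice, whose Trp53 alleles are floxed and intact. The second was HCC of p53LKO mice, in which Trp53 is deleted in the liver. The third was ICC of p53LKO mice. The labels leave this abbreviation unexplained, and it commonly stands for intrahepatic cholangiocarcinoma, a cancer of bile duct type. All mice were males on a C57/BL6J background, and all received CCl4 at 0.5 µl per g in olive oil for 16 weeks from 6 weeks of age, once every 3 days by the labels and 2 times per week by the methods. The study describes collection at more than 1 age, and the age at which each of these tumors was taken and the promoter that drives Cre are not given in the sources used here. The study reports that tumors formed later in p53f/f than in p53LKO mice, so that age may differ between the HCC groups. RNA came from whole tumor tissue, which holds stromal and immune cells beside the tumor cells. Mouse 3717 supplied 2 of the p53f/f HCC, so that this group held 4 mice, and 4 p53LKO mice (3731, 3733, 3976 and 5283) gave 1 HCC and 1 ICC each.

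The respiratory chain passes electrons from NADH and succinate to oxygen and pumps protons across the inner mitochondrial membrane. Complex I takes electrons from NADH, complex II takes them from succinate as part of the citric acid cycle, complex III passes them from ubiquinol to cytochrome c, and complex IV hands them to oxygen. The ATP synthase lets the protons flow back and makes ATP. Several of these subunits hold iron-sulfur clusters and others heme, so that iron is a part of the chain itself. Hepatocytes are rich in mitochondria, and cells of the bile ducts hold fewer of them. A few subunits of the complexes are encoded by the mitochondrial DNA and all others by the nucleus.

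Each array measured 55681 probes, of which 55.1% to 70.1% stood well above background in p53f/f HCC, 37.0% to 62.1% in p53LKO HCC and 42.5% to 47.0% in ICC. The 2 slides had an upper and a lower row of arrays, and p53f/f HCC were only in upper rows, ICC only in lower rows and p53LKO HCC in both, with 3 of 5 in an upper one. A level is the log2 processed signal of a probe minus the 75th percentile of its array, and a gene is represented by its brightest probe. Levels of different probes are not set against each other. The Trp53 probe of the array fell by 2.08 on the log2 scale in p53LKO HCC (standard error 0.24, adjusted p = 0.000169), although the array file places it outside the Trp53 gene, on another chromosome. Both comparisons use the p53LKO HCC arrays, so that a tumor that is high or low there moves both. Of the 93 genes, 90 were well above background often enough to be tested in both comparisons. The other 3 are isoforms of complex IV known from other tissues. Cox7b2 and Cox8c were well above background on 0 of 15 arrays and Cox8b on 1 of 15.

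Most members were lower in ICC than in HCC. In ICC against HCC of p53LKO mice, 68 of the 90 members were lower and 1 was higher at an adjusted p under 0.05 (limma, Benjamini-Hochberg over all probes tested). Over all 16961 genes tested, 29.1% were lower and 18.5% were higher. The median log2 fold change of the members was -0.83, against -0.17 over all genes, and 31 of the 68 fell by more than 2-fold, where 15.2% of all genes did. Between p53LKO and p53f/f HCC 20 of 90 members were higher and 1 was lower, against 13.8% and 15.7% of 17845 genes, with a median of 0.40 against 0.06. A positive sign was found for 78 members there, against 53.9% of all genes, and a negative sign for 88 members in ICC, against 58.3%.

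The members are bright, and bright genes of these arrays moved in the same directions. Genes were therefore also drawn from the range between the 25th and the 75th percentile of the members' mean levels, which holds 1469 genes. Members within the range are among them. They are called equally bright here, but the match is loose. On the log2 scale the members' median lay above theirs by 0.67 in p53f/f HCC, 0.81 in p53LKO HCC and 0.61 in ICC. Of these equally bright genes 21.5% were higher in p53LKO than in p53f/f HCC, close to the 22.2% of the members, 6.06% were lower, and their median was 0.30. In ICC 53% of them were lower and 7.62% higher, with a median of -0.60, so that the members lay lower by a further 0.23 on the log2 scale. The share of lower members in ICC was 75.6%. Of the 1469 equally bright genes 1117 had a positive sign in p53LKO HCC and 1180 a negative sign in ICC, and 417 were lower there by more than 2-fold. Groups without overlap were found for 59 members in the direction of lower ICC, against 19.9% of all genes, and for 10 members in the direction of higher p53LKO HCC, against 8.23% of all genes. Only 1 member without overlap was lower there, against 11.3%. Among the 1469 equally bright genes, 571 were lower in ICC without overlap, and 195 were higher and 76 lower in p53LKO HCC.

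**Figure D1:**
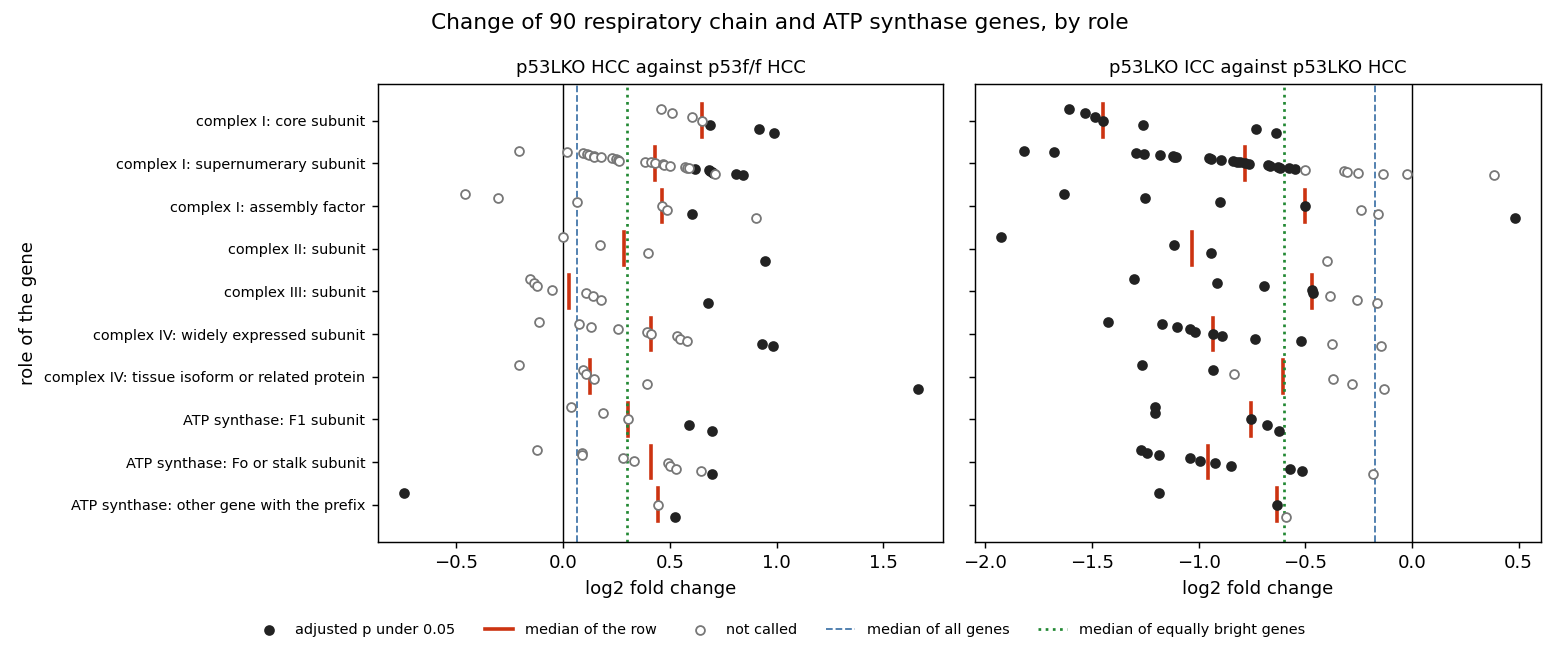
Log2 fold change of the 90 tested members (x axis) by role (rows) in the 2 comparisons; each point is 1 gene, filled where the adjusted p was under 0.05, the red line is the median of the row, the dashed line that of all genes and the dotted line that of equally bright genes. The core subunits of complex I had the lowest median in ICC (-1.45), and the rows of complex III lay nearest to 0 in p53LKO HCC (0.03).

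Complex I is the entry for NADH and the largest complex, with 43 members here. Its 7 nuclear-encoded core subunits, which bind NADH, flavin and the iron-sulfur clusters of the complex, had a median of -1.45 in ICC and of 0.65 in p53LKO HCC. Ndufs1 is the largest core subunit and carries iron-sulfur clusters. Its level was 4.33, 4.91, 4.59, 3.92 and 3.83 in the 5 p53f/f HCC. It was 5.68, 5.13, 5.21, 5.31 and 5.20 in the p53LKO HCC, and 3.73, 3.49, 3.68, 3.73 and 4.25 in the ICC. The p53LKO HCC lay above every other tumor, while ICC and p53f/f HCC overlapped. The log2 fold change was 0.99 in p53LKO HCC (standard error 0.23, adjusted p = 0.00756) and -1.53 in ICC (standard error 0.18, adjusted p = 0.000172). The exact permutation test over 252 divisions of the 10 arrays (2-sided) gave p = 0.00794 in each comparison, the smallest p it can give, and this p holds for every member whose groups did not overlap.

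Ndufv1, the subunit that binds NADH and flavin, was -1.45 in ICC (standard error 0.18, adjusted p = 0.000219). Its p53LKO HCC levels of 6.03 to 6.56 lay above the ICC levels of 4.49 to 5.18. In p53f/f HCC it ranged from 4.85 to 6.53, with tumor 3715-T2 at the level of the p53LKO HCC, and the rise of 0.92 had an adjusted p of 0.0407, a call lost under 21 of 31 alternatives. Ndufs3, a core subunit of the arm that faces the matrix, fell by 1.61 in ICC (adjusted p = 0.000121). Its change of 0.51 in p53LKO HCC did not pass the test (adjusted p = 0.0684). Ndufs8 fell by 1.26 in ICC, Ndufv2 by 0.73 and Ndufs7 by 0.64, and Ndufs7 alone among the 6 core subunits named here had ICC and HCC that overlapped. With the mouse as a block Ndufv2 (-0.76) and Ndufs7 (-0.60) did not pass the test.

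Of the 29 supernumerary subunits, which surround the core, 22 were lower in ICC, against 29.1% of all and 53% of equally bright genes, and 7 were higher in p53LKO HCC, against 13.8% and 21.5%. Ndufa10, a subunit related to nucleoside kinases, had the levels 3.52, 4.17, 3.78, 3.16 and 2.99 in the p53f/f tumors. They were 4.32, 4.15, 4.33, 4.43 and 3.87 in the p53LKO HCC and 2.60, 1.98, 2.30, 2.43 and 2.72 in the ICC. The ICC were below all HCC of both genotypes. The fall to ICC was 1.82 on the log2 scale or 3.52-fold (standard error 0.18, adjusted p = 7.51e-05). Ndufa8, a subunit with paired cysteines of the intermembrane space, fell by 1.68 (adjusted p = 4.29e-05) and was 0.84 higher in p53LKO HCC (adjusted p = 0.00757). Ndufb7, which has cysteines of the same kind, was 0.81 higher in p53LKO HCC, and Ndufa7 was 0.62 higher, both without overlap (adjusted p = 0.0111 and 0.0303). The call for Ndufa7 was lost under 14 of 31 alternatives. The same pair was lower in ICC by 1.12 and 0.94.

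Among the subunits of complex I that did not pass the test in ICC, Ndufc2 in the membrane arm was the only supernumerary subunit with a positive value in ICC. Its ICC levels were 5.74, 5.89, 5.77, 5.46 and 5.93, against 5.16, 5.68, 5.46, 5.34 and 5.24 in the HCC of the same genotype, a difference of 0.38 (adjusted p = 0.0725). Ndufab1, the mitochondrial acyl carrier protein that also sits in complex I, was at -0.02, and Ndufs4 was at -0.14. Ndufa3, Ndufa12, Ndufb2 and Ndufb5 had values from -0.50 to -0.25, and Ndufa3, Ndufb2 and Ndufb5 were lower in the ICC of all 4 mice that gave both tumors. Whether these genes differ from the called ones was not tested. These genes were picked for mention after their values were seen.

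Of the 7 assembly factors, which help to build complex I and leave it, 4 (57.1%) were lower and 1 (14.3%) was higher in ICC. Of all genes 29.1% were lower and 18.5% higher, and of equally bright genes 53% and 7.62%. Lower were Ndufaf6 with -1.63, Ndufaf1 with -1.25, Ndufaf7 with -0.90 and Ndufaf5 with -0.50. The value of Ndufaf7 rested on tumor 3976-T1, which was at 3.99 where the other p53LKO HCC were at 2.19 to 2.37. Without it the difference was -0.55 (adjusted p = 0.0151). The calls for Ndufaf7 and Ndufaf5 were each lost when any 1 of 6 tumors was left out, and also with the mouse as a block (-0.98 and -0.44). Ndufaf6 had the levels 2.04, 1.78, 1.81, 2.23 and 1.66 in p53LKO HCC and 0.53, -0.04, 0.12, 0.52 and 0.24 in ICC, without overlap (adjusted p = 0.000106). Ndufaf2 was the only member that was higher in ICC, by 0.48 (standard error 0.18, adjusted p = 0.0484). Its ICC levels of 1.95 to 2.27 overlapped with the HCC levels of 1.34 to 2.02. With the mouse as a replicate block, which pairs the tumors of the 4 mice that gave both, 0 members were higher, and leaving out any 1 of 8 tumors ended the call for Ndufaf2 as well.

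**Figure D2:**
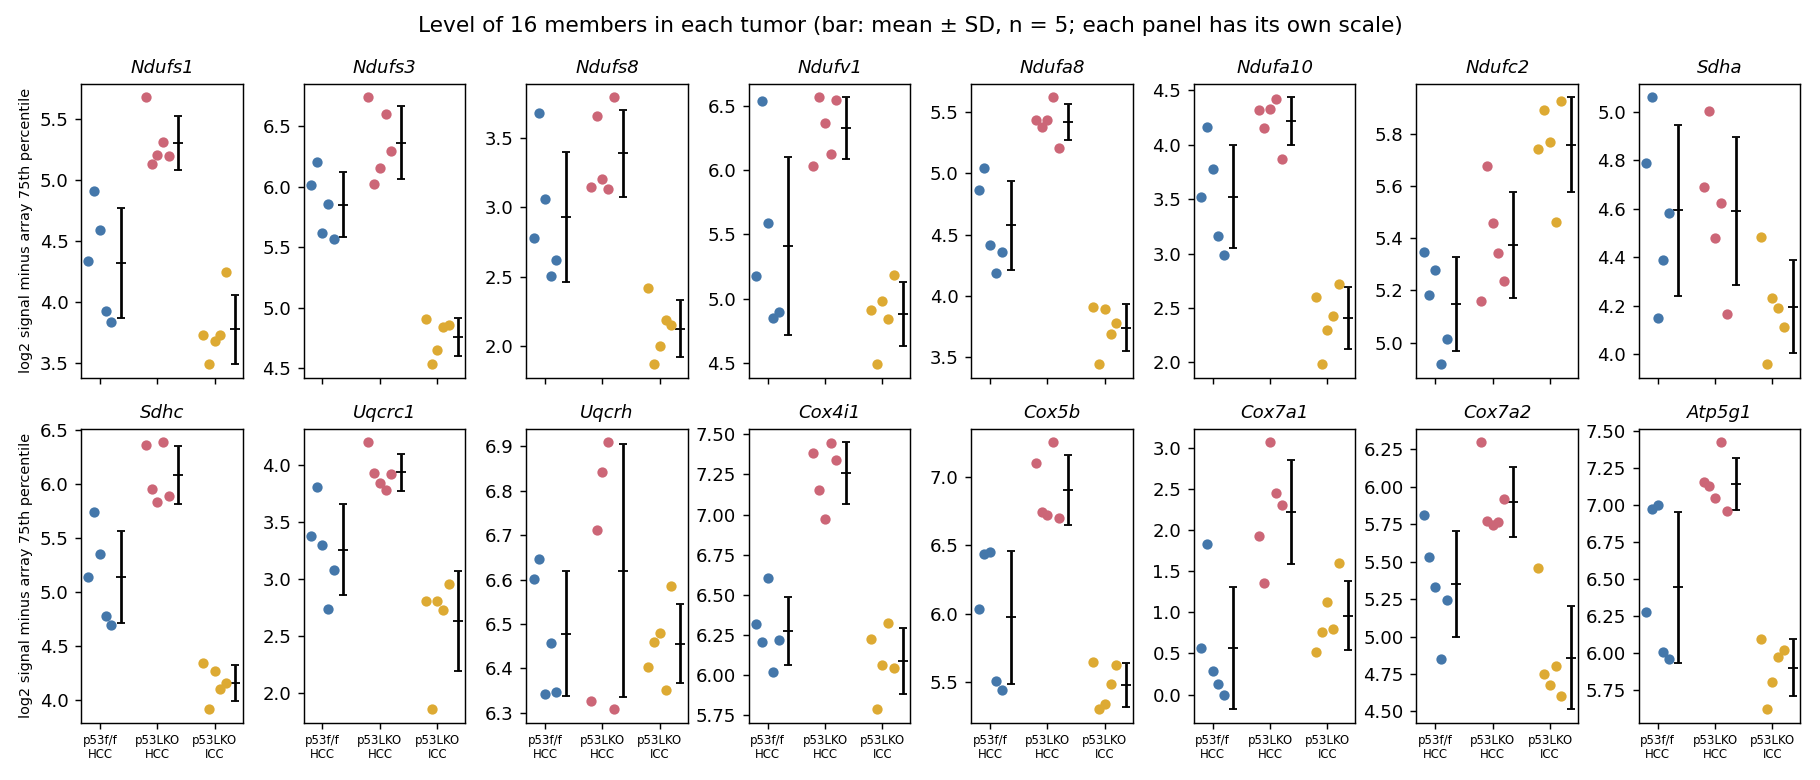
Level of 16 members (y axis, log2 signal minus the 75th percentile of the array) in the 5 tumors of each group, 1 point per tumor, with mean ± SD. The ICC points of Ndufs3, Ndufs8, Ndufa8, Ndufa10 and Sdhc lie below all p53LKO HCC points, while Ndufc2, Uqcrh and Sdha overlap.

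Complex II, or succinate dehydrogenase, has 4 subunits, and 3 were lower in ICC, against 29.1% of all and 53% of equally bright genes. Sdhc, one of the membrane anchors that hold heme and the ubiquinone site, had the largest fall of all members. Its levels were 5.13, 5.74, 5.35, 4.78 and 4.69 in p53f/f HCC and 6.36, 5.95, 5.83, 6.39 and 5.89 in p53LKO HCC. In ICC they were 4.34, 3.91, 4.26, 4.10 and 4.16. The 3 groups did not overlap with each other, with p53LKO HCC highest and ICC lowest. The fall was 1.93 on the log2 scale or 3.80-fold (standard error 0.17, adjusted p = 3.81e-05), and the rise from p53f/f to p53LKO HCC was 0.94 (adjusted p = 0.00981). A second probe gave -1.88 and 1.08. Sdhd, the other anchor, fell by 1.11, and Sdhb, the iron-sulfur subunit, by 0.94. Sdha, the flavoprotein that holds the catalytic site, was 4.59 ± 0.35 in p53f/f HCC, 4.59 ± 0.31 in p53LKO HCC and 4.20 ± 0.19 in ICC (SD, n = 5 each), and neither comparison passed the test (adjusted p = 0.994 and 0.101). Within an array the difference between Sdhc and Sdha fell by 1.53 from p53LKO HCC to ICC, without overlap, and was 0.95 higher in p53LKO than in p53f/f HCC, with overlap. No array scaling by a constant can move these values.

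The 8 members of complex III had the lowest median of the 5 complexes in p53LKO HCC and the highest in ICC, under the main scaling and with the percentile over detected probes, quantile normalization and the spike-in probes. In p53LKO HCC their median was 0.03, which turned to -0.22 with the percentile over detected probes and to -0.08 with quantile normalization. Among the 8, 4 had a negative sign, and Uqcrc1 alone was higher (12.5%, against 13.8% of all and 21.5% of equally bright genes). Uqcrc1, a core protein, was 0.68 higher in p53LKO HCC (adjusted p = 0.0270, a call lost under 14 of 31 alternatives) and fell by 1.30 in ICC (adjusted p = 0.000984). In ICC 5 of the 8 were lower, against 29.1% of all and 53% of equally bright genes, with a median of -0.47, or 0.03 with quantile normalization. Uqcrq fell by 0.91, and Uqcrfs1, the Rieske iron-sulfur protein, by 0.69, with groups that overlapped. Uqcrc2 and Uqcr11 fell by 0.46 and 0.47 (adjusted p = 0.0382 and 0.0480), and neither passed the test with the mouse as a block (-0.54 and -0.50). The hinge protein Uqcrh was at -0.16, Uqcr10 at -0.26 and Uqcrb at -0.38, none past the test. Cyc1, the heme subunit of the same complex, was listed with the other genes of the pathway and fell by 0.98 in ICC (adjusted p = 0.00230).

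Complex IV has widely expressed subunits and isoforms that belong to certain tissues. Of the 11 widely expressed genes 9 were lower in ICC, 5 of them by more than 2-fold, where 29.1% and 15.2% of all genes were. Of the 1469 equally bright genes 53% were lower, and 417 were lower by more than 2-fold. In p53LKO HCC 2 of the 11 were higher, near the shares of 13.8% of all and 21.5% of equally bright genes. Cox4i1, the widely expressed form of subunit 4, was 6.32, 6.21, 6.61, 6.02 and 6.22 in p53f/f HCC. It was 7.38, 7.15, 6.97, 7.44 and 7.34 in p53LKO HCC and 6.22, 5.79, 6.06, 6.32 and 6.05 in ICC. The p53LKO HCC stood above both other groups, which overlapped. The rise was 0.98 (standard error 0.17, adjusted p = 0.00135) and the fall to ICC 1.17 (adjusted p = 0.000381). Cox5b, a zinc-binding subunit, rose by 0.93 (adjusted p = 0.0142) and fell by 1.42 in ICC (adjusted p = 0.000162). Cox5a fell in ICC by 0.89, Cox6a1 by 1.02, Cox6c by 1.10, Cox7a2 by 1.04, Cox8a by 0.74 and Cox7b by 0.52. The last pair did not pass the test with the mouse as a block (-0.67 and -0.56). Ndufa4, named for complex I and later assigned to complex IV, fell by 0.93. Cox6b1 and Cox7c, at -0.15 and -0.37, did not pass the test.

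The tissue isoforms gave 1 large rise. Cox7a1, known as the heart and skeletal muscle isoform, had the levels 0.57, 1.84, 0.29, 0.13 and -0.01 in p53f/f HCC and 1.93, 1.36, 3.08, 2.45 and 2.30 in p53LKO HCC. In ICC it was 0.52, 0.77, 1.12, 0.79 and 1.60. Tumor 3715-T2 of the p53f/f group and 5283-T7 of the p53LKO group overlapped, and the other tumors of these groups did not. The rise was 1.66 on the log2 scale or 3.16-fold (standard error 0.39, adjusted p = 0.00869), the only rise of a member by more than 2-fold, where 5.19% of all genes rose so far, and the fall to ICC was 1.27 (adjusted p = 0.00844). With the mouse as a block the fall was 1.21 and did not pass the test (adjusted p = 0.0995), and the ICC of mouse 5283 was 0.24 above its HCC. Of the 6 striated muscle markers 3 were well above background often enough to be tested. None of these passed the test in either comparison, and their summed level was -1.15 to -0.77 in p53f/f HCC and -1.49 to -0.27 in p53LKO HCC. Cox6a2, also a muscle isoform, was 0.15 in p53LKO HCC (adjusted p = 0.688) and fell by 0.93 in ICC (adjusted p = 0.00121). Cox4i2, a lung isoform, was at -0.21 and -0.28, Cox6b2, a testis isoform, at 0.09 and -0.37, and the supercomplex factor Cox7a2l at 0.11 and -0.13 in p53LKO HCC and ICC, none past the test. Within an array the difference between Cox4i2 and Cox4i1 fell by 1.19 from p53f/f to p53LKO HCC and rose by 0.89 from there to ICC, both without overlap. Ndufa4l2, a relative of Ndufa4 that is induced by low oxygen, had the widest spread within each group among the 90 tested members, with an SD of 1.02 in p53f/f HCC, 1.46 in p53LKO HCC and 0.89 in ICC, and no comparison could be drawn from it (adjusted p = 0.693 and 0.329).

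Of the 18 genes named for the ATP synthase 16 were lower in ICC, against 29.1% of all and 53% of equally bright genes. All 5 subunits of F1, the catalytic head, were lower, with values from -1.20 to -0.62. With the mouse as a block the F1 subunits Atp5d (-0.63) and Atp5e (-0.62) did not pass the test, nor did Atp5f1 (-0.51), Atp5h (-0.59) and Atp5sl (-0.66). Atp5b, the catalytic subunit, fell by 0.75 and Atp5c1, the rotating shaft, by 1.20 (adjusted p = 0.00302 and 0.000282). Among the 10 subunits of the membrane part and the stalks 9 were lower, with Atp5o at -1.27 (adjusted p = 0.000240) and Atp5l alone at -0.18 (adjusted p = 0.382). Of the 3 genes that encode the same proton-carrying c subunit, Atp5g1 was 0.70 higher in p53LKO HCC (adjusted p = 0.0448), Atp5g2 was at 0.50 and Atp5g3 at 0.09. Within an array the difference between Atp5g1 and Atp5g3 was 0.61 larger there, with groups that overlapped. The call for Atp5g1 was lost under 21 of 31 alternatives. In ICC all 3 were lower, by 1.24, 0.92 and 0.99. Atp5c1 was 0.59 higher in p53LKO HCC without overlap (adjusted p = 0.0307), and Atp5a1, the other large subunit of the head, 0.70 higher (adjusted p = 0.0396). These calls were lost under 15 and 18 of 31 alternatives. Atp5s, a coupling factor, was the only member that was lower in p53LKO HCC. Its levels were -1.78, -1.95, -2.31, -1.65 and -1.58 in p53f/f HCC and -2.38, -2.84, -2.49, -2.57 and -2.73 in p53LKO HCC, a fall of 0.75 (standard error 0.18, adjusted p = 0.00950) that came to -0.01, not past the test, when arrays were scaled to the spike-in probes. It was not well above background on any ICC array, where the level of p53LKO HCC was at least 1.07-fold higher, and this comparison did not pass the test (adjusted p = 0.111).

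The 7 subunits that carry iron-sulfur clusters (Ndufs1, Ndufs7, Ndufs8, Ndufv1, Ndufv2, Sdhb and Uqcrfs1) were all lower in ICC, against 29.1% of all and 53% of equally bright genes, with a median of -0.94, and Ndufs7 and Ndufv2 did not pass the test with the mouse as a block (adjusted p = 0.167 and 0.0683). In p53LKO HCC 3 of them were higher, Ndufs1, Ndufv1 and Ndufv2, against 13.8% of all genes, with a median of 0.61, and Uqcrfs1 had the only negative sign. The calls for Ndufv1 and Ndufv2 were lost under 21 and 16 of 31 alternatives.

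The probes behind 4 of these results lie in transcript sequence that holds at least 1 reading frame without a stop codon, and they are shown so that the measured stretch can be placed. The array file gives mm9 coordinates for 1 of them, Cox4i1 at chr8:123197924-123197983, and calls the other 3 unmapped.
Cox7a1: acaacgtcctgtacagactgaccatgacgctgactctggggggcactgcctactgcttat
Cox4i1: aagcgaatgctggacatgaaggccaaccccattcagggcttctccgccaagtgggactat
Ndufa10: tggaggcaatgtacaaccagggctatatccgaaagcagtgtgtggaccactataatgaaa
Uqcrc1: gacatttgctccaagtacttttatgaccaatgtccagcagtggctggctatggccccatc

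Several members have processed copies elsewhere in the genome. Of 25 genes with more than 1 probe, 11 had probes that the array file places on different chromosomes, and for 9 of 66 members with both positions the brightest probe lay on another chromosome than the promoter of the gene in RefSeq. The 9 are Atp5c1, Atp5g2, Atp5j2, Atp5k, Atp5l, Atp5o, Cox7c, Ndufb11 and Ndufs5, and which copy their probes measured is uncertain. The pseudogene Atp5c1-ps gave -1.18 in ICC, beside -1.20 for Atp5c1. Its probe, at chr13:77808693-77808752, lies close to both Atp5c1 probes, at chr13:77808194-77808253 and chr13:77808314-77808373. Whether these probes read the same transcript was not tested, and both genes are counted as members. The probes of a gene mostly moved together. For Atp5l 6 probes on 5 chromosomes ranged from -0.22 to -0.18 in ICC, and for Uqcr10 3 probes from -0.26 to -0.25. Probes had opposite signs for Ndufb5, Ndufv3, Uqcrq and Cox7a2l in p53LKO HCC and for Ndufb5 and Cox7a2l in ICC, none of them past the test in opposite directions.

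The array also holds 6 probes on the mitochondrial chromosome, which are named by transcript and not by symbol and so are not members. By their descriptions they measure NADH dehydrogenase subunits 1, 2 and 4, cytochrome b and, on opposite strands, 2 stretches described as subunit 6. All were well above background on all 15 arrays. The 5 on the plus strand were lower in ICC, by 1.66 for subunit 1, 1.37 for the stretch described as subunit 6, 0.87 for subunit 4, 0.79 for subunit 2 and 0.76 for cytochrome b. None of these 5 passed the test between p53LKO and p53f/f HCC, where they lay between -0.33 and 0.12. The probe on the minus strand went the other way. It fell by 1.63 in p53LKO HCC (adjusted p = 0.00436), and in ICC it was at 0.69 (adjusted p = 0.0548).

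Genes that serve the complexes without being members were counted from lists. Of 34 tested further subunits and assembly factors, 22 were lower and 1 was higher in ICC, and 6 were higher and 0 lower in p53LKO HCC. The share of the list that was lower in ICC was 64.7% and the share that was higher in p53LKO HCC 17.6%, beside 29.1% and 13.8% of all genes. The largest fall was that of Cox17, a copper chaperone of complex IV, with -1.66, and the rise was that of Sdhaf1, an assembly factor of complex II, with 1.76. Sco2, another copper chaperone and a known target of p53, was at -0.14 in p53LKO HCC (adjusted p = 0.762) and fell by 1.55 in ICC (adjusted p = 0.00288). Cycs, cytochrome c, was 0.98 higher in p53LKO HCC and fell by 0.89 in ICC. Atpif1, which inhibits the ATP synthase, had the largest rise of the list in p53LKO HCC, 1.20 (adjusted p = 0.00142). Of 20 tested genes of the citric acid cycle and pyruvate entry, 14 were lower in ICC with a median of -0.82, led by the pyruvate carrier Mpc2 with -2.15, and 3 were higher in p53LKO HCC, led by Mdh2 with 1.14. Their shares were 70% and 15%. Of 16 genes of coenzyme Q synthesis and other electron inputs, 12 were lower in ICC with a median of -0.89, led by Adck3 with -2.06, and 3 were higher in p53LKO HCC, led by Dhodh with 0.92, which made 75% and 18.8%. Among 8 carriers, porins and uncoupling proteins 5 (62.5%) were lower and 2 higher in ICC, and 3 (37.5%) were higher in p53LKO HCC. The ADP/ATP carrier Slc25a4, a muscle and heart form, was 1.88 higher in p53LKO HCC and fell by 1.49 in ICC, and the uncoupling protein Ucp2 rose by 1.29 in ICC.

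Regulators of mitochondrial biogenesis formed another list, with medians of 0.19 in p53LKO HCC and -0.28 in ICC, which turned to -0.06 and 0.09 with the percentile over detected probes. Of 16 tested, 3 were lower in ICC, the mitochondrial transcription factors Tfb2m (-1.21) and Tfb1m (-1.11) and the coactivator Ppargc1b (-1.04), and 2 were higher in p53LKO HCC, Tfb2m (0.60) and Tfb1m (0.59). Both shares, 18.8% and 12.5%, lay below the 29.1% and 13.8% of all genes. Ppargc1a, the coactivator best known for this role, had a within-group SD of 0.74 to 1.81 and was at -0.48 and -0.21 in p53LKO HCC and ICC. Tfam, which packs and transcribes mitochondrial DNA, was at -0.11 and -0.39 (adjusted p = 0.629 and 0.0563). The factors Nrf1 and Gabpa, whose binding letters are known from promoters of this pathway, were at 0.17 and -0.31 in ICC, neither past the test.

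RefSeq promoters (GRCm38.p6), from 250 bases before to 50 after the start, were on hand for 73 of the 93 genes, as 78 sequences. The palindromic letters known for NRF1, which the sequences below show in capitals, stood in 7 of the 78 (8.97%), in 0.971% of all 32851 promoters and in 1.66% of the 15102 promoters of genes tested in both comparisons. The letters CCGGAAG, known for ETS factors such as GABP, stood in 21.8% of the members' promoters, 8.86% of all and 14.3% of those of the tested genes. The median GC content was 57.5% for the members, 52.7% for all and 59% for the tested genes. Both searches are matches of letters. Shown are the 250 bases before the start for the 3 members that were lower in ICC without overlap and held the first motif there, in capitals. They are Atp5k at chr5:108434400-108434649, Cox6a1 at chr5:115348959-115349208 and Atp5g2 at chr15:102671048-102671297, all on the minus strand and written 5′ to 3′. For Atp5k and Atp5g2 the probe lies on another chromosome than the promoter shown, so which copy fell is uncertain.
Atp5k: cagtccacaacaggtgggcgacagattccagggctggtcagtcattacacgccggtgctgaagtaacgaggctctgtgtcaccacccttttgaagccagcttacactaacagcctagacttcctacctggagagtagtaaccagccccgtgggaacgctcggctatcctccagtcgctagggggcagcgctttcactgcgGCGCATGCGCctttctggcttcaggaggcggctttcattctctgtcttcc
Cox6a1: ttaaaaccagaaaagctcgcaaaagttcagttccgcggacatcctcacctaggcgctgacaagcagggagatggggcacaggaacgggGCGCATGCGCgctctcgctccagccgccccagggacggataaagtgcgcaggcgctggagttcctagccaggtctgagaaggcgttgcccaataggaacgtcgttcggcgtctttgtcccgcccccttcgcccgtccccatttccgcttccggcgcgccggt
Atp5g2: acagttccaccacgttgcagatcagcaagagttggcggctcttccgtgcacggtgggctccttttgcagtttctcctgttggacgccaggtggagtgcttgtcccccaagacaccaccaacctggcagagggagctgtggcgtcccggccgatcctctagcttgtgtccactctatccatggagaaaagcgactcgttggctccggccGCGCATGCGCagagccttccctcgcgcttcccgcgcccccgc

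The tumors themselves differed in the level of the whole set. The median level of the 90 members was 5.18 to 5.90 in p53f/f HCC, 5.76 to 6.02 in p53LKO HCC and 4.93 to 5.24 in ICC. All 5 ICC lay below all p53LKO HCC, and 2 of 5 p53LKO HCC lay above all p53f/f HCC. The spread was widest among the p53f/f HCC, with an SD of 0.29 against 0.10 and 0.13. There tumor 3715-T2 had 5.90, within the range of the p53LKO HCC, and both tumors of mouse 3717 had 5.18 and 5.22. The count of higher members in p53LKO HCC depended on single tumors. Without 3715-T2 it came to 39, against 15.1% of all genes, without 3717-T1 to 8 (9.71%) and without 3717-T2 to 9 (10.3%). Without 3976-T1 or 3733-T1 it came to 11 each, against 11.1% and 10.7%, and with the mean of the 2 tumors of mouse 3717 to 9, against 9.71%. Of the 20 members 8 kept the call whichever tumor was left out, Ndufs1, Ndufa8, Ndufa13, Ndufb7, Sdhc, Cox4i1, Cox5b and Cox7a1, and the other 12 lost it without some tumor. In ICC leaving out any 1 tumor left between 59 lower members (without 3733-T3, against 24.4% of all genes) and 68 (without 3975-T4, against 28%), and 58 of the 68 kept the call throughout.

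**Figure D3:**
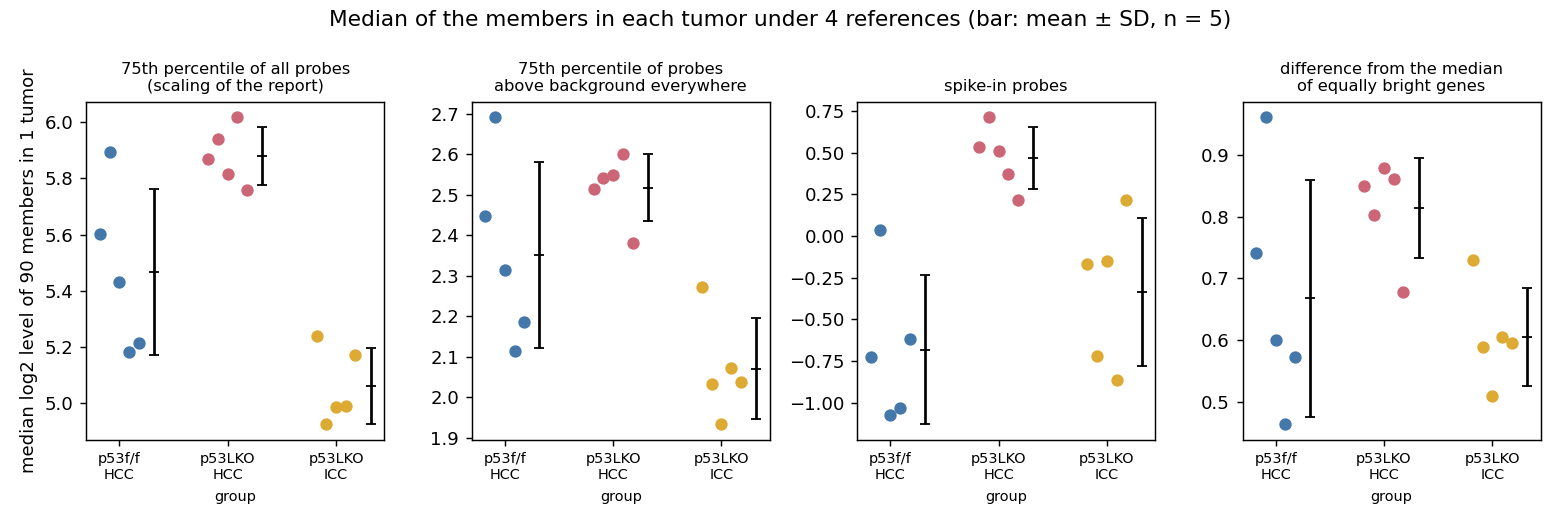
Median of the 90 tested members in each tumor (y axis, log2; 1 point per tumor, with mean ± SD, n = 5) under 3 array scalings, and as the difference from the median of equally bright genes on the same array. The ICC lie below all p53LKO HCC in the first 3 panels, and in the fourth 4 of 5 do.

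The size and number of the changes depended on how the arrays were scaled. In p53LKO HCC the count of higher members was 20 with the 75th percentile of all probes, 7 with that percentile taken over the 18884 probes detected on every array, 9 with quantile normalization and 79 with the 7 spike-in probes. Over all genes 13.8%, 6.78%, 11.4% and 51.5% were higher under these scalings, and of equally bright genes 21.5%, 10%, 9.60% and 76.1%, where the members had 22.2%, 7.78%, 10% and 87.8%. With the median of detected probes, the median of tested probes and normexp background correction 8, 40 and 33 members were higher, against 8.15%, 22.9% and 17.2% of all genes and 12.3%, 37.6% and 32.6% of equally bright genes. The share of the members was thus below that of equally bright genes with both scalings to detected probes and above it with the others. The median moved from 0.16 to 1.14, and that of all genes moved with it, from -0.18 to 0.80, under scaling by a constant per array. The difference between them was 0.34 under each such scaling of the processed signal and 0.19 with quantile normalization. Set against equally bright genes it was 0.10, and 0.17 with quantile normalization. In ICC the count of lower members was 68, 44, 36 and 50 under the first 4 scalings, against 29.1%, 15.1%, 24.5% and 19% of all genes and 53%, 32.1%, 26.1% and 35.0% of equally bright genes. Under the other 3 it was 54, 69 and 69, against 20.6%, 32.9% and 27.7%. The median of the members was negative under all 7 scalings, from -0.91 to -0.41, also where the median of all genes was 0.20. Against equally bright genes it stayed lower by 0.18 to 0.30.

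**Figure D4:**
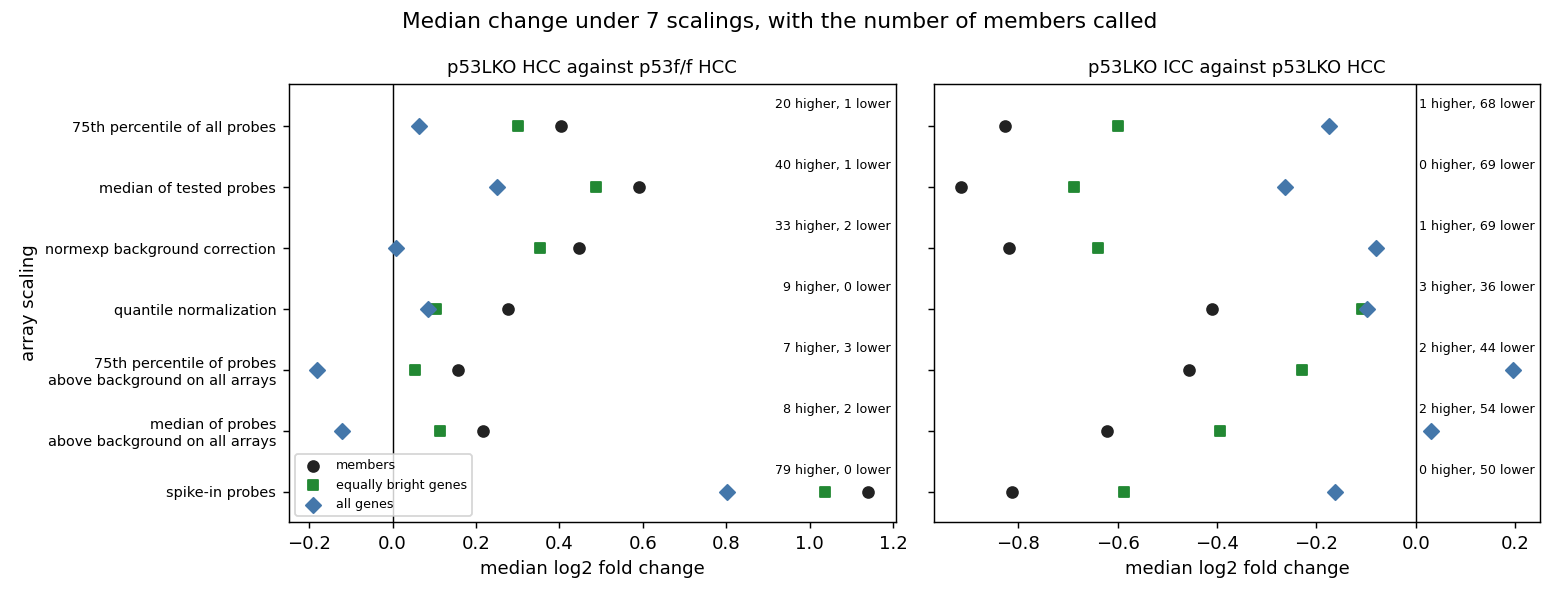
Median log2 fold change (x axis) of the members, of equally bright genes and of all genes under 7 array scalings (rows) in the 2 comparisons, with the number of members called higher and lower at the right of each row. The members stay below both other sets in ICC and above them in p53LKO HCC. The distance from all genes is 0.19 to 0.44 in p53LKO HCC and -0.74 to -0.31 in ICC.

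Position on the slide was followed as well. Within the lower rows alone, where 2 HCC and 5 ICC of p53LKO mice lay, 50 members were lower in ICC, against 18.6% of all genes, and with the row as a block 54 were, against 17.7%. Within the upper rows alone, where 5 p53f/f and 3 p53LKO HCC lay, 9 members were higher in p53LKO HCC, against 8.84%, and with the row as a block 10 were, against 8.61%. Within the 4 mice that gave both tumors, the median difference of the members, ICC minus HCC, was -0.71 in mouse 3731, -1.04 in 3733, -0.86 in 3976 and -0.83 in 5283. It was lower than the median of all genes in each mouse, which lay between -0.19 and -0.13, and than that of equally bright genes, which lay between -0.80 and -0.42. A lower level in the ICC of all 4 mice was found for 74 of 90 members (82.2%), against 32% of all genes and 55.7% of equally bright genes. Ndufc2 and Ndufaf2 were higher in the ICC of all 4 mice. With the mouse as a block 48 members were lower, against 17.4% of all genes, and 21 calls were lost.

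The tumors also differed in their cell type markers. The hepatocyte markers had a median of -0.43 in p53LKO HCC and -1.70 in ICC, where the members had 0.40 and -0.83. Of 8 hepatocyte markers 5 were lower in ICC, Apoa1, Hnf4a, Alb, Ttr and Serpina1c, and the summed level of all 8 was 10.95 to 11.38 in p53LKO HCC and 9.28 to 10.62 in ICC. Of 7 tested cholangiocyte markers 4 were higher, with summed levels of 2.42 to 3.39 and 6.07 to 7.17. Of 7 fibroblast and stellate cell markers 4 were higher, with 5.29 to 7.42 and 8.14 to 9.03, and of 6 tested leukocyte markers 2 were higher and 1 lower. No hepatocyte marker was below background on all ICC arrays. Between p53LKO and p53f/f HCC 2 of 8 hepatocyte markers were lower and 1 of 6 leukocyte markers, Itgam, was lower by 2.09, and 2 of 6 cell cycle genes, Mcm2 and Pcna, were higher. Of 5 endothelial markers 1 was lower there, and in ICC 1 was higher and 1 lower. Of 3 tested pancreatic acinar markers 2 were lower in ICC. The part of these cells in the changes of the set was not tested, and fewer mitochondria-rich cells cannot be told apart from less RNA per cell in whole tumors. Of the 90 members 83 had a lower mean in ICC than in p53f/f HCC as well, against 57.6% of all genes.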

How the data were processed

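RNA of 15 liver tumors was hybridised to 1-colour Agilent mouse arrays. The deposited intensity values were made by Agilent Feature Extraction 10.7.3.1, which, per the file headers, subtracted the background and detrended each array without normalizing between arrays. The deposited table of log2 values, made by the authors in GeneSpring without a stated scale, was found by comparison to be the same signals scaled to the 75th percentile and centred on the median of each probe, separately for the HCC and the p53LKO arrays. It served as an alternative. The scanner values were used here. Spots of a probe were averaged, log2 was taken and the 75th percentile of each array was subtracted, so that levels are relative to the other probes of the array. A probe was tested in a comparison if either of its groups had 3 or more arrays where it was well above background. Tests were made with limma 3.58.1 in R 4.3.3 (36082 and 32669 probes), with Benjamini-Hochberg adjustment over all probes tested and a threshold of 0.05. The number of arrays limits the precision. Tables and plots were made with Python 3.11.15, pandas 2.3.3, numpy 2.4.6 and matplotlib 3.10.9. Scripts were tested on simulated data.

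Genes named in the text are the 8 largest rises and falls of each comparison among members past the threshold without overlap, the tissue isoforms and their partners, and core subunits of each complex. Others were picked after their values were seen. One gene of these is not reported here. The members and all lists were chosen with earlier results of these data known, and the comparison with equally bright genes was added after the data were seen. Tumors of the same animal were paired because they share the mouse, although the deviations of such pairs from their group means correlated by only -0.14 to 0.07. Mouse 3717 gave 2 p53f/f tumors, which were counted as separate samples, with their mean as an alternative. Nothing else in the labels says whether tumors are independent beyond the mouse. Probe positions are those of the array file (mm9), and promoters are from RefSeq (GRCm38.p6), where 73 of 93 genes had one. Alternatives were other background corrections, array scalings, filters on dim probes, slide, row and mouse as blocks, other tests and thresholds, and leaving out each tumor.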

Additional observations from a re-analysis of the deposited data

Results flagged for a closer look

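In 14 of 279 groups of 5 tumors, over the 93 members, a single tumor lay far from the other 4 (Dixon's test, critical value 0.71), where chance alone gives 13.95 on average. In p53LKO HCC, tumor 3976-T1 lay above the others for Ndufaf7 (3.99), Ndufa7 (7.15) and Ndufv3 (6.74), 5283-T7 above the others for Ndufab1 (1.01), and 3975-T4 below the others for Sdhb (5.95) and Ndufa5 (5.46). In ICC, 3731-T3 lay above the others for Cox7a2 (5.46), Atp5h (6.41) and Ndufb4 (5.79), and 5283-T20 for Ndufb10 (5.62). There 3733-T3 lay below the others for Uqcrc1 (1.86) and Ndufaf1 (1.72), and 3976-T8 for Cox6b1 (2.68). In p53f/f HCC, 3715-T2 lay above the others for Ndufb6 (5.16).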

How the results depend on the processing

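In ICC the members kept a negative median and more lower than higher calls under every alternative run, while in p53LKO HCC the median stayed positive and the count of higher members moved widely. That count, 20, became 33 with normexp background correction, 9 with quantile normalization, 7 and 8 with the 75th percentile and the median of the probes detected on all arrays, 40 with the median of the tested probes and 79 with the spike-in probes. It was 8 without a filter on dim probes, 10 with the row as a block, 10 with the Mann-Whitney test, 5 at an adjusted p under 0.01, 1 with a fold change over 2, 9 in the upper rows alone and 9 with the mean of the 2 tumors of mouse 3717. Leaving out 1 tumor gave 8 (3717-T1) to 39 (3715-T2). The median was 0.28 with quantile normalization, 0.16 and 0.22 with the percentile and the median of detected probes, 0.59 with the median of tested probes and 1.14 with the spike-in probes, and 0.33 to 0.50 with 1 tumor left out. Minus the median of all genes it was 0.19 with quantile normalization, 0.18 among probes above background on every array, 0.10 against equally bright genes and 0.25 to 0.45 with 1 tumor left out. In ICC the 68 lower members became 36 with quantile normalization, 44 with the 75th percentile of detected probes and 31 with a fold change over 2, and 59 to 68 with 1 tumor left out. The median was -0.41, -0.46 and, with the median of detected probes, -0.62, and -0.86 to -0.79 with 1 tumor left out. Minus the median of all genes it was -0.31 with quantile normalization, -1.03 without a filter, -0.23 against equally bright genes and -0.68 to -0.59 with 1 tumor left out. The cause of these shifts was not tested.

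With the mouse as a replicate block, which drops the tumors of mice 3975 and 3977, 48 members were lower, against 17.4% of all genes, and 0 higher in ICC, with a median of -0.84. With this block 21 members lost the call and 0 gained one. No p53f/f mouse is a p53LKO mouse, so the HCC comparison could not be paired. Of the named members, 3 had the opposite sign and a call under 1 alternative. They were Cox4i2 (0.53) and Cox6b1 (0.62) in p53LKO HCC with the spike-in probes, and Cox7a2l (0.38) in ICC with quantile normalization. Dim members such as Atp5s are limited by the background.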
